A study of Rattus norvegicus with 30 samples.

Results

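The genes followed here are those that drive and execute cell division: the cyclins and CDK1, the mitotic kinases, the spindle checkpoint and kinetochore, the chromosomal passenger complex, the activators of the anaphase-promoting complex, the spindle kinesins, and the proteins of cytokinesis and of condensed chromosomes. They were chosen as a list of 42 rat gene symbols, of which 38 were found among the 17322 genes of the expression table by their Entrez Gene identifiers, and Cenpe, Ncapg, Ncaph and Anln were not analysed here. RNA was sequenced from Wistar Han rat testes taken at 8.5 and 14.5 days postpartum (dpp), at 24.5 and 30.5 dpp, and at 36.5 and 53.5 dpp, and from fragments of 8.5 dpp testes grown on agarose where medium meets air, for 6 days (D6), 16 days (D16), 22 days (D22) or 28 days (D28), so that D6 matched 14.5 dpp in age, D16 matched 24.5 dpp, D22 matched 30.5 dpp and D28 matched 36.5 dpp. The animals were untreated, each in vivo library came from 1 testis, and each cultured library pooled explants of several males after the necrotic centre of the explants was removed. All groups had 3 libraries except 14.5 dpp, which had 2, since the library set aside by the study as an outlier is listed at 0 for all genes. Per the study's methods, the libraries of a group came from RNA isolated as independent sets, so p-values measure the spread between such sets.

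A cell enters mitosis when CDK1 is activated by its cyclins, and Polo-like and Aurora kinases then build the spindle and correct the attachment of chromosomes. The spindle checkpoint holds the anaphase-promoting complex inactive until every kinetochore is attached, after which securin and the cyclins are destroyed and the cell divides. In the prepubertal rat testis, spermatogonia and immature Sertoli cells divide by mitosis, Sertoli cells cease to divide with the onset of puberty, and spermatocytes later use much of the same machinery, together with meiotic forms such as cyclin A1 and Aurora C, for the meiotic divisions.

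Values were given in FPKM, the number of fragments scaled to transcript length and to the mapped reads of a library, and differences are on the log2(FPKM + 1) scale with the standard error (SE). A gene was called when its Benjamini-Hochberg adjusted p-value in limma was at most 0.05 and the group medians differed by at least 2-fold. The later culture times were all set against the same 2 testes of 14.5 dpp, and share 1 adjusted p per gene, from an F test over their 3 contrasts. Read depth is unknown, and the steps between low values put the libraries at 0.774 to 1.46 in relative depth, with 12520 to 13563 genes detected in each. The 10 most abundant genes took from 3.45% to 11.9% of a library's summed FPKM. The median gene changed by -0.68 on the log2 scale from 14.5 to 36.5 dpp, and by -0.24 after libraries were scaled to the same median of the genes tested. Changes across late in vivo ages are therefore given beside the median of all genes tested.

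Promoters of the members were read first, because they held a shared sequence that the list did not use. RefSeq promoters of the rat (build GRCr8, from 250 bases before to 50 bases after the gene start) matched 30 of the 38 members, and Pbk, Cdca2, Tpx2, Racgap1, Incenp, Ccna2, Ube2c and Aurkb had no entry. The cell cycle genes homology region (CHR), searched as TTTGAA or TTCGAA on both strands, is bound by the DREAM and MuvB complexes that hold late cell cycle genes silent in resting cells and activate them in G2. It occurred in 24 of the 30 promoters (80.0%), in 19.7% of all 33469 promoters of the same length and in 14.0% of the 10836 promoters of genes expressed in these libraries. The CCAAT box, searched on both strands and bound by NF-Y, occurred in 23 of the 30 (76.7%) and in 37.5% of all promoters. Both motifs lay together in 19 of the 30 (63.3%) and in 7.95% of all promoters. A match is a description of letters and no measurement of binding.

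Windows of 8 promoters are shown to let the arrangement be read, of which 6 hold both motifs. The others are those of Nek2 and Aurka, the kinases with the largest rise in vivo, without a CHR match in 300 bases. The annotated start of Aurka directly follows cttcag, the letters of an intron end, and an ATG comes within 20 bases. Its window may therefore not hold the site where transcription begins. Capitals mark CHR and CCAAT matches on either strand, so that TTCAAA and ATTGG are matches on the minus strand of the gene, and all sequences run 5′ to 3′ along the gene. In Mki67 a CHR and a CCAAT match overlap in 1 run of capitals.
Ccnb2: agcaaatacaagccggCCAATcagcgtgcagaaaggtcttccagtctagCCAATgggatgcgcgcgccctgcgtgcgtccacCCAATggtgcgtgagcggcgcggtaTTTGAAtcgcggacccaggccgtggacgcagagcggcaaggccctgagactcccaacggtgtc
Cdk1: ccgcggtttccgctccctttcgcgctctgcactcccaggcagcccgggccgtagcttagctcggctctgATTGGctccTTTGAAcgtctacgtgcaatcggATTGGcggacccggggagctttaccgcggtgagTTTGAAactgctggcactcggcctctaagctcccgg
Aspm: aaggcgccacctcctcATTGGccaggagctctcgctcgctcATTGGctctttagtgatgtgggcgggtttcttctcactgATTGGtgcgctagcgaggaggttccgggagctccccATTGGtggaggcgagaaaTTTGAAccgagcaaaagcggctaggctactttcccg
Cks2: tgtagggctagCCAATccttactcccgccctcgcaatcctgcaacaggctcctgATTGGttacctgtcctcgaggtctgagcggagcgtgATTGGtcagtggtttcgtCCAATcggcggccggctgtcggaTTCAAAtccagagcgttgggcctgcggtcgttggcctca
Cdc20: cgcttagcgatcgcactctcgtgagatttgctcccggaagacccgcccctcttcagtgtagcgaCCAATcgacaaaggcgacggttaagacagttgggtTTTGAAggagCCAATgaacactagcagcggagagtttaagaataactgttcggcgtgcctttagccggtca
Mki67: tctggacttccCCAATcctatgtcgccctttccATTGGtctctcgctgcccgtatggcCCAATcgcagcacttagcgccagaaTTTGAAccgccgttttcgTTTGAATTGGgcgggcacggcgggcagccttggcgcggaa
Nek2: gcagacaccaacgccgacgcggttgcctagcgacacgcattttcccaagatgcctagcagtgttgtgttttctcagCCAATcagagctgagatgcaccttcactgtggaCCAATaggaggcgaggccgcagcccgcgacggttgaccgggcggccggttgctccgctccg
Aurka: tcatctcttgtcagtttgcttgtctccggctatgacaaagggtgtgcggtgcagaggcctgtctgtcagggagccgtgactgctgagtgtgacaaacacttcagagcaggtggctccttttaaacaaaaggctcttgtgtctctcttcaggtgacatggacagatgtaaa
The windows lie on GRCr8: Ccnb2 at chr8:79981639-79981808 on the minus strand, Cdk1 at chr20:19265143-19265312 on the plus strand, Aspm at chr13:53625434-53625603 on the plus strand, Cks2 at chr17:13727500-13727669 on the minus strand, Cdc20 at chr5:137255780-137255949 on the minus strand, Mki67 at chr1:199952653-199952793 on the minus strand, Nek2 at chr13:105936659-105936828 on the plus strand and Aurka at chr3:181560750-181560919 on the minus strand.

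Counted with -1 as the base before the gene start and with 1 as its first base, the CHR of Ccnb2 began at -43, downstream of CCAAT boxes at -134, -101 and -68, and a further CHR began at -214. In Cdk1, CHR matches at -72 and -16 alternated with CCAAT boxes at -81 and -49, and another box began at -210. The promoter of Aspm held 4 CCAAT boxes before a CHR at -16, and that of Cks2 held 4 before a CHR at -19. A CHR began at -60 or later in 20 of the 30 promoters and in 6.33% of all promoters, a limit chosen after the positions were seen. The 6 promoters without a CHR were those of Aurka, Bub1, Ccnb1, Kif11, Kif20a and Nek2, and no match says only that these letters are not in the window. No other spelling of the CHR was searched, and the limit of the Aurka window given above applies.

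**Figure D1:**
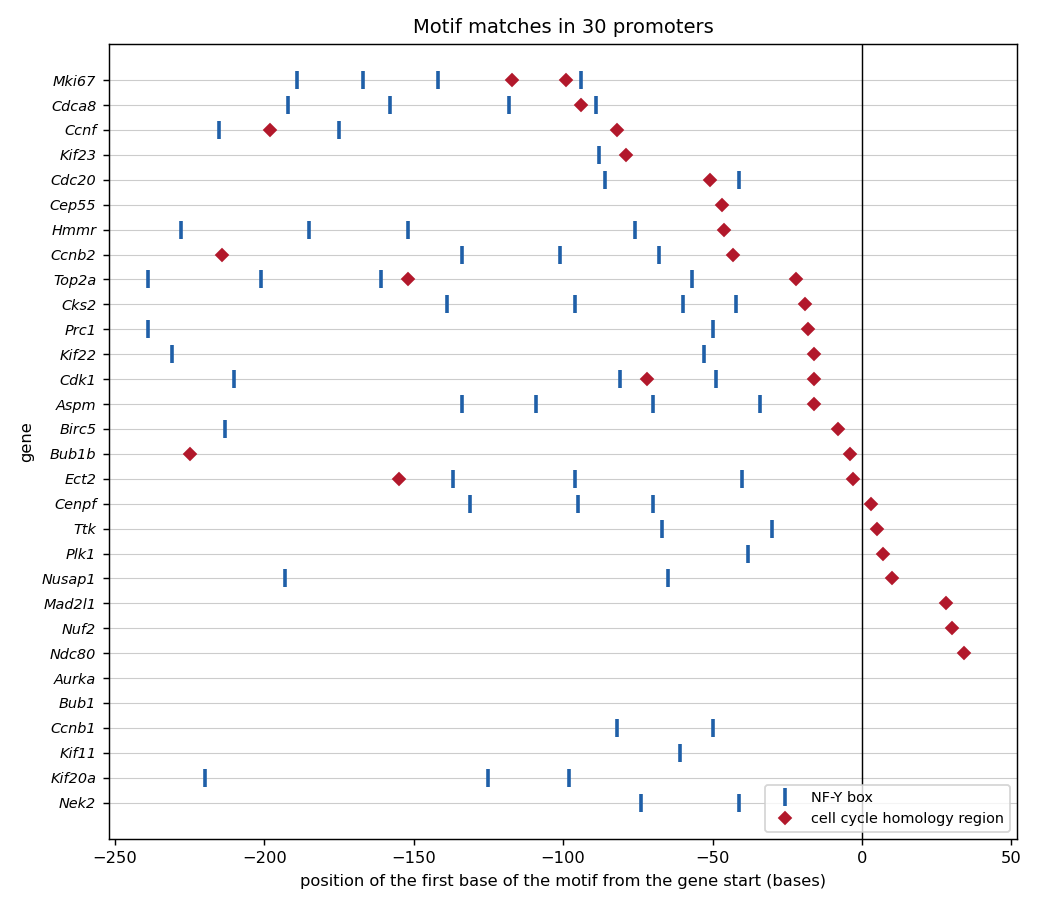
Position of the first base of each match from the gene start, in bases, in the 30 matched promoters, with diamonds for the CHR and bars for the CCAAT box, which NF-Y binds. Diamonds are present in 24 rows, in 20 of them at -60 or later, and the 6 rows at the bottom have none.

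Across the 29 libraries, the level of the median member declined late in vivo, as did that of the median gene, and was low at all culture times. It stood at 108.67% of its 14.5 dpp mean at 8.5 dpp, 91.6% at 24.5 dpp, 93.2% at 30.5 dpp, 74.9% at 36.5 dpp and 54.5% at 53.5 dpp. In culture it stood at 54.6% after 6 days, 36.5% after 16 days, 35.7% after 22 days and 31.8% after 28 days. On the log2 scale, the median member of each 36.5 dpp library lay -0.25 to -0.49 from 14.5 dpp, and the median gene -0.55 to -0.62. At 53.5 dpp these were -0.68 to -0.88 and -0.79 to -0.82, and at D28 -1.38 to -1.59 and -0.03 to -0.06. Members spread from 8.09% for Ccna2 to 1067% for Nek2 at 36.5 dpp. At D28 the middle 50% of members lay between 27.5% and 36.9%, and the extremes were Hmmr (5.08%) and Tpx2 (189%). In bulk tissue, fewer cells of a type and less RNA per cell cannot be told apart.

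**Figure D2:**
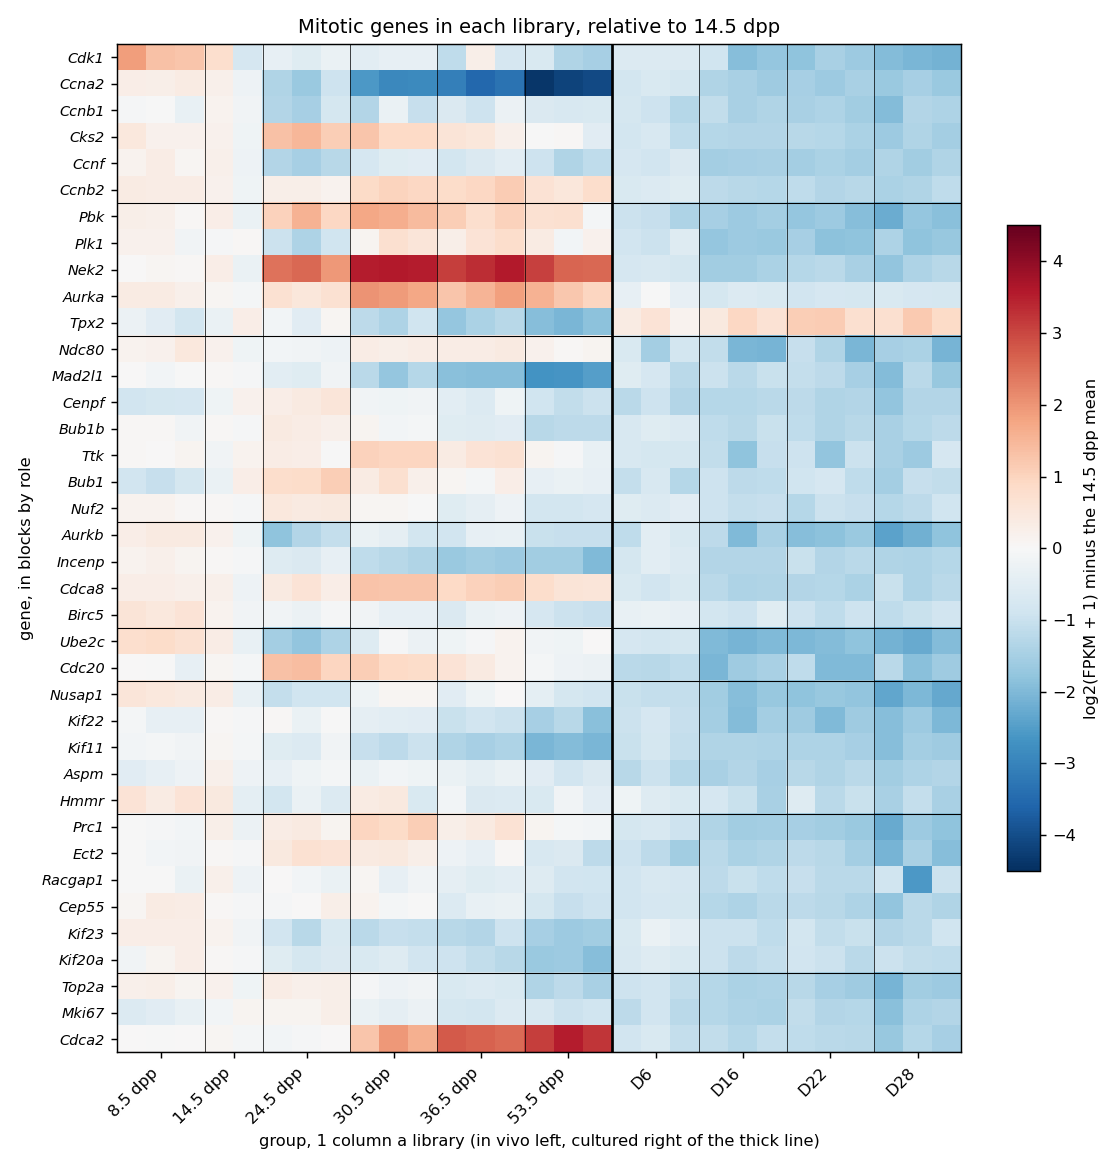
Each cell is 1 of 38 genes (rows, in blocks by role) in 1 of 29 libraries (columns), coloured by log2(FPKM + 1) minus the mean of the 14.5 dpp testes. Red rows in vivo include Nek2, Aurka and Cdca2, and right of the thick line all rows but Tpx2 turn blue.

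In vivo, members peaked at different ages. The highest in vivo mean was at 8.5 dpp for 12 members, among them Cdk1, Ccna2, Ube2c and Birc5, at 14.5 dpp for 7, at 24.5 dpp for 9, among them Cdc20, Cks2, Mki67 and Top2a, and at 30.5 dpp for 6, namely Pbk, Ttk, Nek2, Aurka, Prc1 and Cdca8. Plk1, Ccnb2 and Ndc80 peaked at 36.5 dpp and Cdca2 at 53.5 dpp. Of all 12762 genes expressed, 29.8% peaked at 8.5 dpp, 23.3% at 14.5 dpp, 17.3% at 24.5 dpp, 9.98% at 30.5 dpp, 7.8% at 36.5 dpp and 11.8% at 53.5 dpp, and these are orders of means without a test.

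From 8.5 to 14.5 dpp limma called 0 of the 38 members, beside 15.7% of all genes (8.83% higher and 6.89% lower), and 10 members had an unadjusted p under 0.05. Without 14.5 dpp library 1 the count was 4, and with libraries scaled to the same median it was 1, a fall. From 14.5 to 24.5 dpp, 4 members rose and 7 fell, beside 35.6% of all genes called (14.6% higher and 21.1% lower). Those that rose were Nek2, Cks2, Cdc20 and Pbk, and those that fell were Ube2c, Aurkb, Ccnf, Ccna2, Ccnb1, Plk1 and Nusap1. Without 14.5 dpp library 1 the 11 calls became 7. From 24.5 to 30.5 dpp, 6 members rose (Cdca2, Plk1, Aurka, Ube2c, Nek2 and Nusap1) and 2 fell (Ccna2 and Tpx2), beside 39.0% of all genes (13.5% higher and 25.5% lower); after scaling to the same median 13 rose and 1 fell.

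From 30.5 to 36.5 dpp only Cdca2 was called, a rise of 1.04 (SE 0.18, limma adjusted p = 0.017), beside 7.54% of all genes (6.33% higher and 1.2% lower), and 5 of the 6 fits that each left out 1 library lost it, while scaling to the same median kept 1 call, a rise. From 36.5 to 53.5 dpp only Ccna2 was called, a fall, beside 7.86% of all genes (2.88% higher and 4.98% lower), and no member was called after scaling. Over the whole span from 14.5 to 36.5 dpp, 5 members rose and 8 fell, beside 69.6% of all genes (22.0% higher and 47.6% lower). The median member changed by -0.40 and the median gene by -0.68 on the log2 scale, and after scaling to the same median the split was 11 up and 3 down.

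At the first culture time, many members stood below the testes from which the explants were taken. Between the 8.5 dpp testes and D6, 17 members fell and 0 rose, beside 16.3% of all genes called (9.89% higher and 6.39% lower). The median member changed by -0.88 and the median gene by 0.05 on the log2 scale. All 17 are among the 29 members on the study's own list of genes changed in culture. Of the 9 members not on that list, limma called 0, with a median of -0.75 and 8 at an unadjusted p under 0.05. The 2-fold fall at D6 was therefore called only for members on the list. All D6 libraries lay below all 8.5 dpp libraries in 36 members, beside 23.1% of all genes, the exceptions being Bub1 and Tpx2. Ube2c, the ubiquitin-conjugating enzyme of the anaphase-promoting complex, read 84.8, 89.1 and 80.7 FPKM at 8.5 dpp and 28.9, 27.4 and 28.3 FPKM at D6 (log2 difference -1.55, SE 0.08, limma adjusted p = 2.7e-05). Cdk1 read 88.0, 59.1 and 56.6 FPKM at 8.5 dpp and 15.1, 15.0 and 15.0 FPKM at D6 (-2.07, SE 0.17, limma adjusted p = 0.000128). Both genes had no overlap between the groups.

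Against 14.5 dpp testes of the same age, 10 members were lower at D6 and 0 higher, beside 7.94% of all genes called (5.57% higher and 2.37% lower). They were Aspm, Bub1, Cdc20, Cenpf, Ect2, Kif11, Kif22, Mki67, Nusap1 and Pbk. All but Bub1 are among the 29 members on the study's list, which was chosen with the 14.5 dpp testes. The count was 2 without D6 library 1, 3 without D6 library 3 and 6 without 14.5 dpp library 1. The libraries did not overlap for 34 members, all lower at D6, beside 27.4% of all genes, and the others were Hmmr, Cdk1, Aurka and Tpx2. The comparisons of 8.5 dpp with D6 and with 14.5 dpp share the 8.5 dpp testes.

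From D6 to D16 the mean fell in 37 members, beside 51.6% of all genes, and limma called 2 of them, Ube2c and Cdk1, beside 3.3% of all genes (1.45% higher and 1.85% lower). The 2 calls became 1 without D6 library 3, D16 library 2 or D16 library 3. Without the 2-fold requirement, 22 members passed the adjusted p from D6 to D16, all lower. From D16 to D28, limma called 0 of the 37 members tested, beside 0.215% of all genes (0.125% higher and 0.0895% lower), and 9 had an unadjusted p under 0.05; the count was also 0 after scaling. All D28 libraries lay below all D6 libraries in 32 members, beside 17.4% of all genes, and group means fell at every step from D6 to D28 in 17 members, beside 10.0%. The study's list was chosen with the D16, D22 and D28 libraries, so these gaps are no independent evidence of a fall in culture. Of the 9 members not on it, limma called 0 from D6 to D16, with a median of -0.41 and 6 at an unadjusted p under 0.05.

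Set against the 14.5 dpp testes, 34 of 38 members were lower at D16 and 0 higher, beside 11.9% of all genes called (6.56% higher and 5.35% lower). At D22, 34 were lower and 1, Tpx2, was higher, beside 12.9% of all genes (7.34% higher and 5.51% lower), and at D28, 35 were lower and 0 higher, beside 13.6% (7.63% higher and 6.01% lower). The median member changed by -1.49 and the median gene by -0.08 at D28. Every D16, D22 and D28 library lay below both 14.5 dpp libraries in 37 members, beside 22.2% of all genes, the exception being Tpx2. The study's own list of changed genes in these samples holds 29 of the 38 members, so this count is no independent evidence of the direction. Of the 9 others, 6 were lower at D28, beside 6.01% of all genes, in the same libraries and against the same 14.5 dpp testes. The counts at D28 by role and by promoter motif below use this comparison and carry the same limit. Racgap1, Aurka and Tpx2 were not called at D28.

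The D28 count was 29 without 14.5 dpp library 1 and 36 without D28 library 2, with the lone 14.5 dpp library assumed to vary like the other groups. Without 14.5 dpp library 1 the calls of Hmmr (-0.89), Ndc80 (-1.49), Ttk (-1.44), Cdk1 (-1.30), Birc5 (-0.85) and Cdc20 (-1.49) were lost, with the same direction. Without 14.5 dpp library 2 those of Bub1 (-0.92), Ndc80 (-1.86) and Ttk (-1.11) were lost and Tpx2 was called higher (1.20). Leaving out D28 library 1 ended the calls of Birc5 (-0.94) and Ttk (-1.18) and added Tpx2 (1.01) and Racgap1 (-1.77), and leaving out D28 library 3 ended that of Hmmr (-1.26).

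Among the cyclins and CDK1, all 6 members were lower at D28 than at 14.5 dpp, beside 6.01% of all genes. All 6 are on the study's list, chosen with these libraries, so their count is no independent evidence. Ccna2, cyclin A2 of S phase and G2, read 54.5 and 39.1 FPKM at 14.5 dpp, 25.6, 28.4 and 26.4 FPKM at D6, and 14.0, 15.8 and 13.9 FPKM at D28 (D28 against 14.5 dpp -1.60, SE 0.14, limma adjusted p = 0.000187). In vivo it fell further, to 4.59, 3.06 and 3.70 FPKM at 36.5 dpp and 1.29, 1.64 and 1.82 FPKM at 53.5 dpp (36.5 against 14.5 dpp -3.31, SE 0.20, limma adjusted p = 2.5e-05). It was therefore higher at D28 than in the testis of the same age, by 1.71 (SE 0.14, limma adjusted p = 1.4e-05), without overlap. Cdk1, the kinase of M phase entry, read 40.0 and 13.5 FPKM at 14.5 dpp, 9.96, 28.0 and 13.5 FPKM at 36.5 dpp and 5.23, 4.79 and 4.60 FPKM at D28 (D28 against 14.5 dpp -2.05, SE 0.40, limma adjusted p = 0.0149). Its testes of 14.5 and 36.5 dpp spread widely within a group and overlapped each other, while the D28 values lay below both.

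Ccnb2, cyclin B2, had the smallest change of this group at D28, from 49.5 and 37.6 FPKM at 14.5 dpp to 15.6, 16.5 and 19.2 FPKM (-1.29, SE 0.13, limma adjusted p = 0.00035). In the 36.5 dpp testes it read 77.2, 82.5 and 96.2 FPKM, above all 14.5 dpp libraries but short of a 2-fold ratio of medians (1.89), and it was called higher after scaling to the same median (1.58). Cks2, a small CDK-binding subunit, read 63.3 and 49.1 FPKM at 14.5 dpp, 142, 158 and 121 FPKM at 24.5 dpp, 83.8, 79.3 and 65.6 FPKM at 36.5 dpp, and 17.3, 21.0 and 18.7 FPKM at D28. Its rise to 24.5 dpp was 1.31 (SE 0.19, limma adjusted p = 0.00316), and its D28 level was the lowest of all groups. Ccnf, the substrate receptor of a ubiquitin ligase, read 12.6 and 9.11 FPKM at 14.5 dpp, 5.58, 6.38 and 7.38 FPKM at 36.5 dpp and 3.63, 2.96 and 3.62 FPKM at D28 (D28 against 14.5 dpp -1.42, SE 0.13, limma adjusted p = 0.000153). Ccnb1, cyclin B1, was also lower at D28 than at 14.5 dpp (-1.56, SE 0.19, limma adjusted p = 0.00103).

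**Figure D3:**
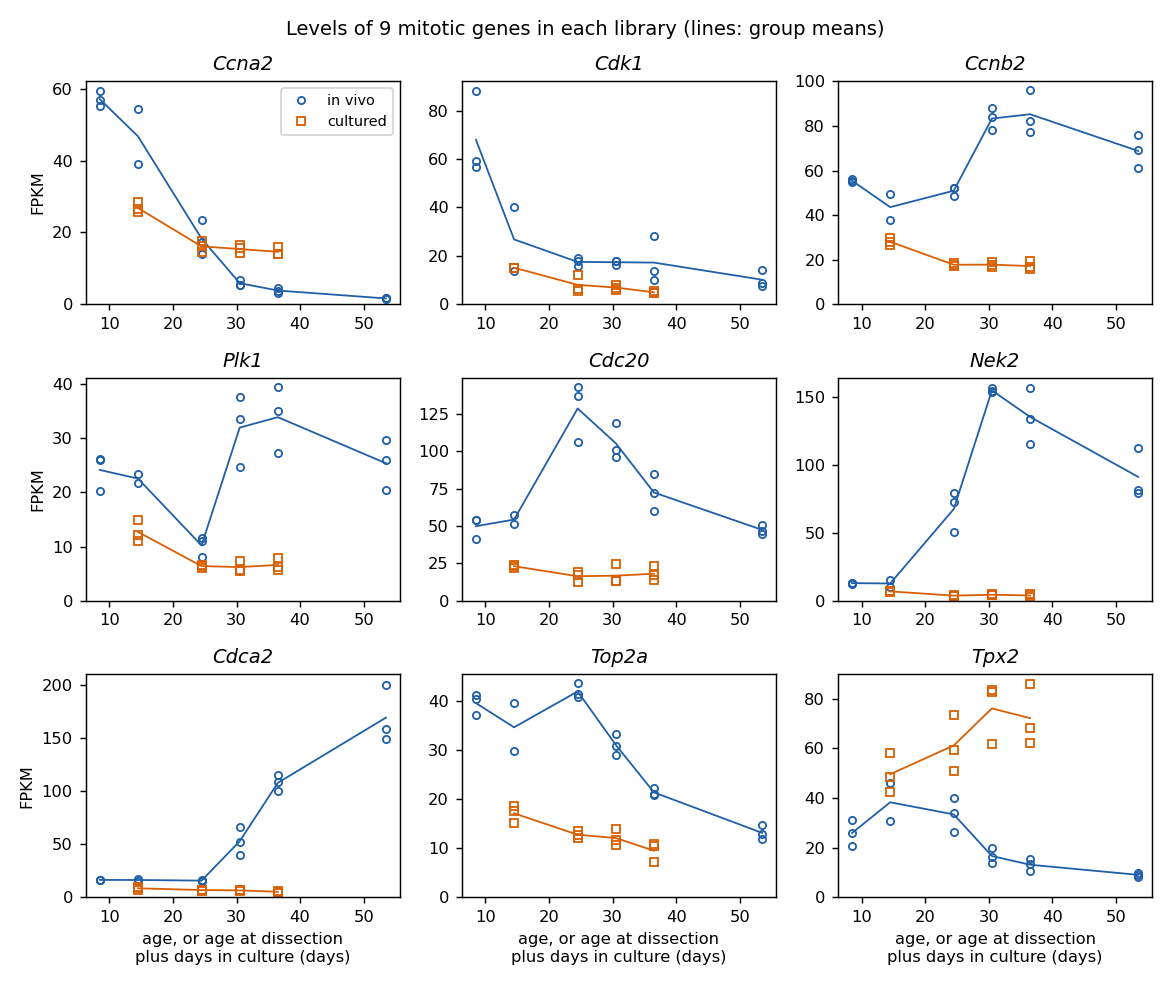
Level in FPKM (vertical axes, from 0) of 9 genes against age in days, with 1 circle per in vivo library, 1 square per cultured library placed at 8.5 days plus the days in culture, and lines through group means. Cultured values lie low and flat in most panels, Ccna2 crosses the in vivo curve, and Tpx2 lies above it.

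Plk1, Aurka, Nek2, Pbk and the Aurora A activator Tpx2 were grouped by role, apart from Cdk1, Aurkb, Bub1 and Ttk, kinases described with their own complexes. Of these 5, 3 rose from 14.5 to 36.5 dpp and 1 fell, beside 22.0% of all genes higher and 47.6% lower. At D28, 3 of the 5 were lower than at 14.5 dpp, beside 6.01% of all genes. These were Nek2, Plk1 and Pbk, all on the study's list, while Aurka and Tpx2 are not on it. Nek2, a kinase of the centrosome, read 15.4 and 9.92 FPKM at 14.5 dpp, 72.2, 79.1 and 50.8 FPKM at 24.5 dpp, 154, 156 and 153 FPKM at 30.5 dpp and 116, 133 and 156 FPKM at 36.5 dpp (36.5 against 14.5 dpp 3.34, SE 0.22, limma adjusted p = 3.2e-05). In culture it read 6.84, 7.03 and 6.68 FPKM at D6 and 2.88, 4.09 and 4.56 FPKM at D28, so that its D28 libraries lay below both 14.5 dpp testes (-1.48, SE 0.19, limma adjusted p = 0.00105). The ratio of medians between 36.5 dpp and D28 was 32.6 (D28 lower by -4.82, SE 0.17, limma adjusted p = 2.3e-07). Aurka, the Aurora kinase of spindle poles, read 19.8 and 17.2 FPKM at 14.5 dpp, 44.8, 54.8 and 68.7 FPKM at 36.5 dpp and 11.2, 10.6 and 10.3 FPKM at D28. Its rise in vivo was 1.53 (SE 0.20, limma adjusted p = 0.000543), and its D28 level was below both 14.5 dpp testes by less than 2-fold (ratio of medians 1.75).

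Pbk, a mitotic serine/threonine kinase, had the largest difference between D28 and 14.5 dpp among these 5, reading 35.8 and 22.9 FPKM at 14.5 dpp, 14.1, 13.3 and 10.4 FPKM at D6 and 5.30, 7.78 and 7.08 FPKM at D28 (D28 against 14.5 dpp -1.95, SE 0.19, limma adjusted p = 0.000384). In vivo it read 62.6, 49.6 and 60.0 FPKM at 36.5 dpp, a rise of 0.97 (SE 0.22, limma adjusted p = 0.00619) that was lost without 14.5 dpp library 2 (0.66) or without 36.5 dpp library 1 (0.91) or 3 (0.94). Plk1, the Polo-like kinase of mitotic entry, dipped in vivo, from 21.8 and 23.3 FPKM at 14.5 dpp to 11.0, 8.01 and 11.6 FPKM at 24.5 dpp and back to 27.2, 34.9 and 39.5 FPKM at 36.5 dpp. In culture it read 12.1, 11.1 and 14.9 FPKM at D6 and 7.91, 5.67 and 6.22 FPKM at D28 (D28 against 14.5 dpp -1.64, SE 0.15, limma adjusted p = 0.000138). The annotation of Plk1 overlaps that of Ern2, as does Aurka that of Fam210b, and the strand setting of the counting is not stated.

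Tpx2, the spindle assembly factor that activates Aurora A, was the exception. It read 30.6 and 46.0 FPKM at 14.5 dpp, 48.4, 58.0 and 42.4 FPKM at D6, 82.8, 83.7 and 61.9 FPKM at D22 and 62.4, 86.0 and 68.2 FPKM at D28. All D16, D22 and D28 libraries lay above both 14.5 dpp testes; the D22 difference was called (0.99, SE 0.22, limma adjusted p = 0.0259), and the D28 ratio of medians was 1.78. In vivo it fell to 10.7, 13.3 and 15.4 FPKM at 36.5 dpp (-1.46, SE 0.23, limma adjusted p = 0.00123), a call that scaling to the same median ended (-0.85). D28 exceeded 36.5 dpp by 2.37 (SE 0.17, limma adjusted p = 7.4e-06), and by 1.86 after scaling.

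Of the genes of the spindle checkpoint and kinetochore, 7 of 7 were lower at D28 than at 14.5 dpp, beside 6.01% of all genes. Bub1, Ttk and Mad2l1 are not on the study's list, and the others are. Against the 8.5 dpp testes from which explants were taken, 1 of the 7, Ndc80, was called lower at D6, beside 6.39% of all genes. The median of the 7 was -0.67, and 6 of the 7 had an unadjusted p under 0.05. From D6 to D16 limma called 0 of them, beside 3.3% of all genes, and 3 had an unadjusted p under 0.05. From D16 to D28 it called 0, beside 0.215% of all genes, and 1 had an unadjusted p under 0.05. Bub1b, which encodes BUBR1 of the mitotic checkpoint complex, read 12.6 and 12.0 FPKM at 14.5 dpp, 8.14, 7.83 and 8.35 FPKM at 36.5 dpp and 3.81, 4.41 and 4.92 FPKM at D28 (D28 against 14.5 dpp -1.31, SE 0.12, limma adjusted p = 0.000181). The paper reports that RT-qPCR of Bub1b differed from RNA-seq, while Cks2, Top2a and Ube2c decreased by RT-qPCR in culture. Ndc80, the microtubule-binding kinetochore subunit, read 24.3 and 18.6 FPKM at 14.5 dpp, 27.2, 26.8 and 28.7 FPKM at 36.5 dpp and 6.86, 7.26 and 4.28 FPKM at D28, the largest difference of the group (-1.67, SE 0.36, limma adjusted p = 0.015). Its partner Nuf2 had the smallest, from 21.5 and 19.7 FPKM to 7.93, 8.65 and 10.7 FPKM (-1.11, SE 0.14, limma adjusted p = 0.000814).

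Mad2l1, which encodes the MAD2 inhibitor of CDC20, was lower than at 14.5 dpp both at 36.5 dpp and at D28. It read 42.5 and 39.5 FPKM at 14.5 dpp, 10.4, 10.2 and 10.1 FPKM at 36.5 dpp and 9.93, 17.1 and 11.8 FPKM at D28, and its levels at D28 and 36.5 dpp overlapped (0.28, SE 0.18, limma adjusted p = 0.185). Its fall in vivo was -1.90 (SE 0.10, limma adjusted p = 1.6e-05). The checkpoint kinases Bub1 (-1.22, SE 0.21) and Ttk (-1.28, SE 0.34) and the kinetochore protein Cenpf (-1.47, SE 0.16) were lower at D28 than at 14.5 dpp. The call of Ttk was also lost after scaling to the same median (-1.18), with a pseudocount of 0.1 FPKM (-1.49), with no filter on low values (-1.28) and without D16 library 1 (-1.28).

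The chromosomal passenger complex corrects chromosome attachment. All 4 of its members, of which only Birc5 is not on the study's list, were lower at D28 than at 14.5 dpp, beside 6.01% of all genes. Aurkb, its kinase, read 41.3 and 31.1 FPKM at 14.5 dpp, 15.7, 25.5 and 21.8 FPKM at D6, 19.1, 27.6 and 28.4 FPKM at 36.5 dpp and 5.92, 7.31 and 9.54 FPKM at D28 (D28 against 14.5 dpp -2.12, SE 0.24, limma adjusted p = 0.000883). Incenp, its scaffold, read 24.5 and 22.2 FPKM at 14.5 dpp, 6.71, 7.13 and 6.87 FPKM at 36.5 dpp and 8.61, 8.29 and 9.02 FPKM at D28 (-1.34, SE 0.11, limma adjusted p = 0.000114), and its change in vivo was a fall too (-1.62, SE 0.11, limma adjusted p = 3.2e-05). Birc5, survivin, changed least, from 60.0 and 48.1 FPKM to 24.0, 26.2 and 29.0 FPKM (-1.003, SE 0.15, limma adjusted p = 0.00231), and was not called after scaling to the same median (-0.90). Cdca8, borealin, rose in vivo by 1.01 (SE 0.16, limma adjusted p = 0.0014) and was lower at D28 than at 14.5 dpp by -1.20 (SE 0.15, limma adjusted p = 0.00053). That rise was lost without 14.5 dpp library 2 (0.80) or 36.5 dpp library 3 (0.97). At 36.5 dpp Aurkb overlapped no 14.5 dpp library and was not called (-0.52).

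Of the partners of the anaphase-promoting complex, Cdc20, its activator, read 57.2 and 51.6 FPKM at 14.5 dpp, 137, 143 and 107 FPKM at 24.5 dpp, 84.6, 72.5 and 60.4 FPKM at 36.5 dpp and 23.0, 13.9 and 17.3 FPKM at D28. It rose to 24.5 dpp by 1.22 (SE 0.18, limma adjusted p = 0.00333) and was lower at D28 than at 14.5 dpp by -1.56 (SE 0.29, limma adjusted p = 0.00503). Ube2c read 62.6 and 39.1 FPKM at 14.5 dpp, 16.4, 13.6 and 18.4 FPKM at 24.5 dpp, 43.3, 48.1 and 54.7 FPKM at 36.5 dpp and 10.7, 9.61 and 11.9 FPKM at D28 (-2.11, SE 0.17, limma adjusted p = 0.000138). At 24.5 dpp the pair moved in opposite directions, and at D28 both were lower than at 14.5 dpp.

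Spindle kinesins and spindle proteins were lower at D28 than at 14.5 dpp in 5 of 5 members, all on the study's list, beside 6.01% of all genes. Nusap1, a microtubule bundler near chromosomes, read 23.2 and 14.2 FPKM at 14.5 dpp, 8.49, 8.16 and 8.03 FPKM at D6, 12.6, 15.8 and 18.5 FPKM at 36.5 dpp and 2.75, 3.70 and 2.89 FPKM at D28, a difference of -2.23 from 14.5 dpp (SE 0.19, limma adjusted p = 0.000218). Kif11, the Eg5 motor that separates spindle poles, read 24.8 and 21.7 FPKM at 14.5 dpp, 8.39, 7.56 and 8.35 FPKM at 36.5 dpp and 5.34, 7.49 and 7.08 FPKM at D28 (-1.68, SE 0.13, limma adjusted p = 0.00012). Its level at D28 lay below the 36.5 dpp testes by 0.26 on the log2 scale, not past the threshold (limma adjusted p = 0.103). Aspm, a spindle pole protein, read 14.1 and 9.99 FPKM at 14.5 dpp, 9.44, 8.41 and 9.39 FPKM at 36.5 dpp and 3.41, 3.95 and 4.13 FPKM at D28 (-1.42, SE 0.14, limma adjusted p = 0.000256). Hmmr, a spindle-associated protein, was the member with the lowest levels, at 2.67 and 1.01 FPKM at 14.5 dpp, and it is listed at 0, 0.281 and 0 FPKM at D28. The annotation of Kif11 overlaps Ide, and that of Nusap1 overlaps Ndufaf1.

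Of the 6 cytokinesis genes, 5 were lower at D28 than at 14.5 dpp, beside 6.01% of all genes. Kif20a, Kif23 and Racgap1 are not on the study's list, and the others are. Prc1, which bundles the central spindle, read 62.2 and 43.1 FPKM at 14.5 dpp, 101, 95.7 and 113 FPKM at 30.5 dpp, 62.6, 68.7 and 80.9 FPKM at 36.5 dpp and 9.96, 15.9 and 14.1 FPKM at D28 (-1.91, SE 0.19, limma adjusted p = 0.000519). Kif20a, a kinesin of the central spindle, changed least, from 23.2 and 21.8 FPKM to 11.1, 9.78 and 9.73 FPKM (-1.07, SE 0.12, limma adjusted p = 0.000535), and in vivo it fell to 11.2, 9.99 and 8.95 FPKM (-1.09, SE 0.13, limma adjusted p = 0.000356; -0.50 and not called after scaling). Racgap1, of centralspindlin, had 5.91 and 4.12 FPKM in the 14.5 dpp testes and values of 2.17, 0 and 2.03 FPKM at D28 (-1.49, SE 0.41, limma adjusted p = 0.0729); without D28 library 2, where it is listed at 0, the difference was called (-0.94). Ect2, the RhoA exchange factor (-1.83, SE 0.18), Cep55, a midbody protein (-1.46, SE 0.16), and Kif23, the centralspindlin motor (-1.14, SE 0.15), were also lower.

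Of the proteins of condensed chromosomes, Cdca2, which encodes the phosphatase targeting subunit Repo-Man, rose in vivo and was low in culture. It read 17.4 and 15.2 FPKM at 14.5 dpp, 40.2, 66.3 and 51.6 FPKM at 30.5 dpp, 115, 108 and 99.9 FPKM at 36.5 dpp and 148, 200.01 and 158 FPKM at 53.5 dpp, a rise of 2.65 from 14.5 to 36.5 dpp (SE 0.12, limma adjusted p = 9.8e-06). At D28 it read 4.29, 6.11 and 5.15 FPKM, lower than at 14.5 dpp by -1.49 (SE 0.13, limma adjusted p = 0.000262). Top2a, topoisomerase II alpha, read 39.5 and 29.7 FPKM at 14.5 dpp, 21.1, 22.2 and 20.7 FPKM at 36.5 dpp and 7.18, 10.9 and 10.4 FPKM at D28 (-1.77, SE 0.18, limma adjusted p = 0.000567). Mki67, which encodes the Ki-67 coat of mitotic chromosomes, was lower at D28 than at 14.5 dpp by -1.53 (SE 0.16, limma adjusted p = 0.000575). The annotation of Cdca2 overlaps Kctd9, and that of Kif20a overlaps Cdc23.

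**Figure D4:**
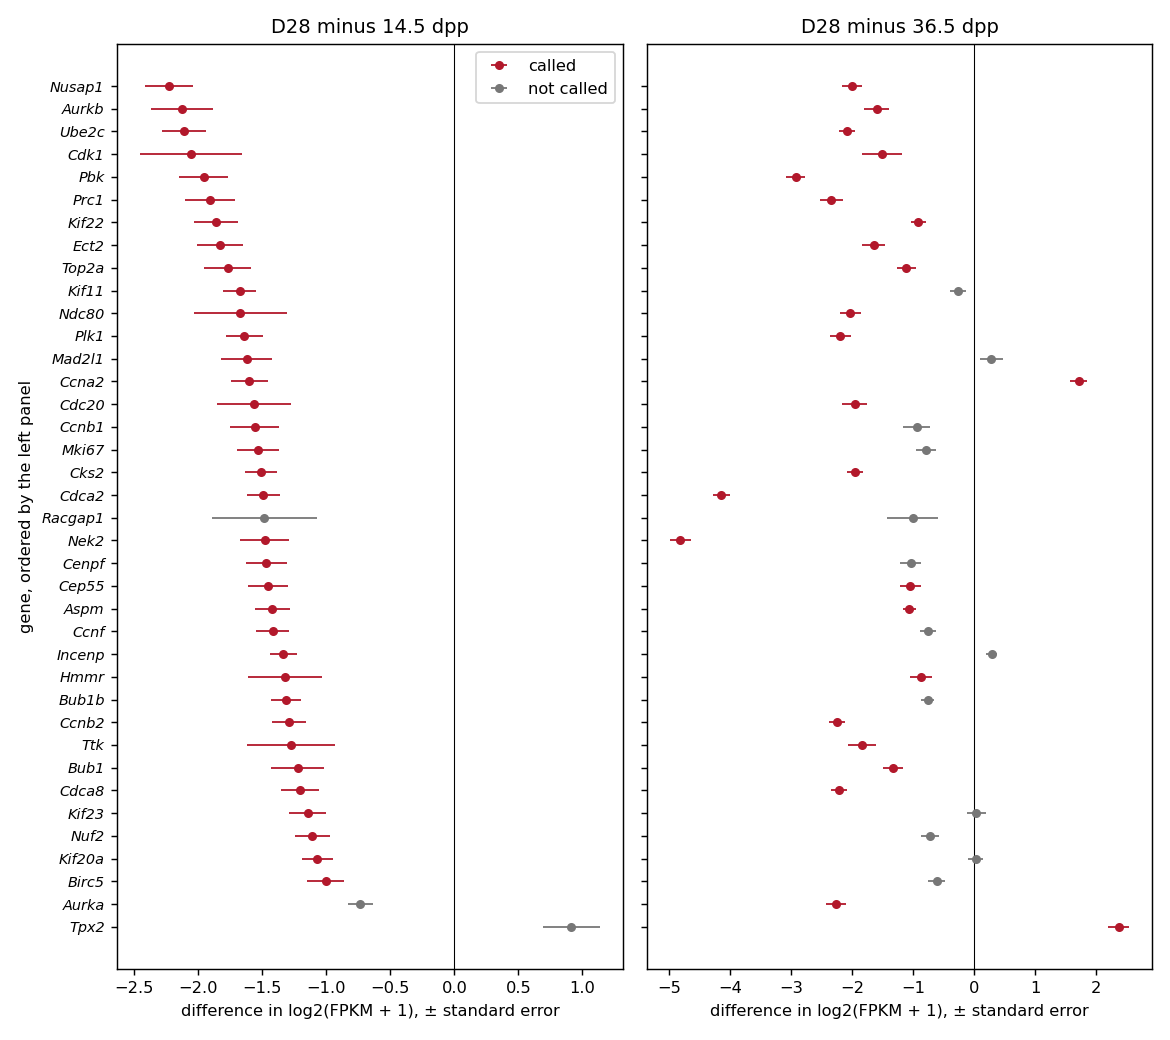
Difference in log2(FPKM + 1) with its standard error for each of the 38 members, D28 minus 14.5 dpp at left and D28 minus 36.5 dpp at right, with called members in red. At left 35 members are called and lie below 0, and at right the values range from -4.82 for Nek2 to 2.37 for Tpx2.

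Against testes of the same age, 23 members were lower at D16 and 0 higher than at 24.5 dpp, beside 43.6% of all genes called (25.3% higher and 18.3% lower). At D22, 29 were lower and 2 higher than at 30.5 dpp, beside 65.0% (42.1% higher and 22.9% lower), and at D28, 23 were lower and 2 higher than at 36.5 dpp, beside 70.3% (46.7% higher and 23.6% lower). The 2 higher members were Ccna2 and Tpx2 at both times. The median member differed by -1.09 at D28 and the median gene by 0.64, and after scaling to the same median 31 members were lower and 2 higher. All D28 libraries lay below all in vivo libraries of any age in 26 members, beside 3.35% of all genes. The study's list, which holds 29 of the 38 members, was chosen with the D28 libraries and an in vivo age in this count. The gap to the share over all genes is therefore no independent evidence of low levels at D28. Of the members not on that list, Bub1, Ttk, Aurka and Racgap1 are among the 26, and Tpx2, Kif20a, Kif23, Birc5 and Mad2l1 are not.

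Whether time acted differently in culture and in vivo was tested as the change from D6 to D28 minus the change from 14.5 to 36.5 dpp, 2 changes that share no library. By limma, with an adjusted p of at most 0.05 and a difference of at least 1 on the log2 scale, 12 members had a lower value in culture and 3 a higher one, beside 57.6% of all genes called (38.4% higher and 19.2% lower); after scaling the split was 15 and 2. Nek2 rose by 3.34 in vivo and changed by -0.71 in culture, a difference of -4.05 (SE 0.27, limma adjusted p = 4.2e-07). Cdca2 differed by -3.27 (SE 0.20, limma adjusted p = 2.3e-07) and Aurka by -2.02 (SE 0.23, limma adjusted p = 2.2e-05). Ccna2 changed by -3.31 in vivo and by -0.84 in culture (2.48, SE 0.22, limma adjusted p = 3.2e-06), and Tpx2 by -1.46 in vivo and by 0.53 in culture (1.99, SE 0.29, limma adjusted p = 0.000129). For Top2a, Bub1b, Ccnf, Kif22 and Mki67 the difference of changes lay between -0.14 and 0.29, and none passed the threshold.

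**Figure D5:**
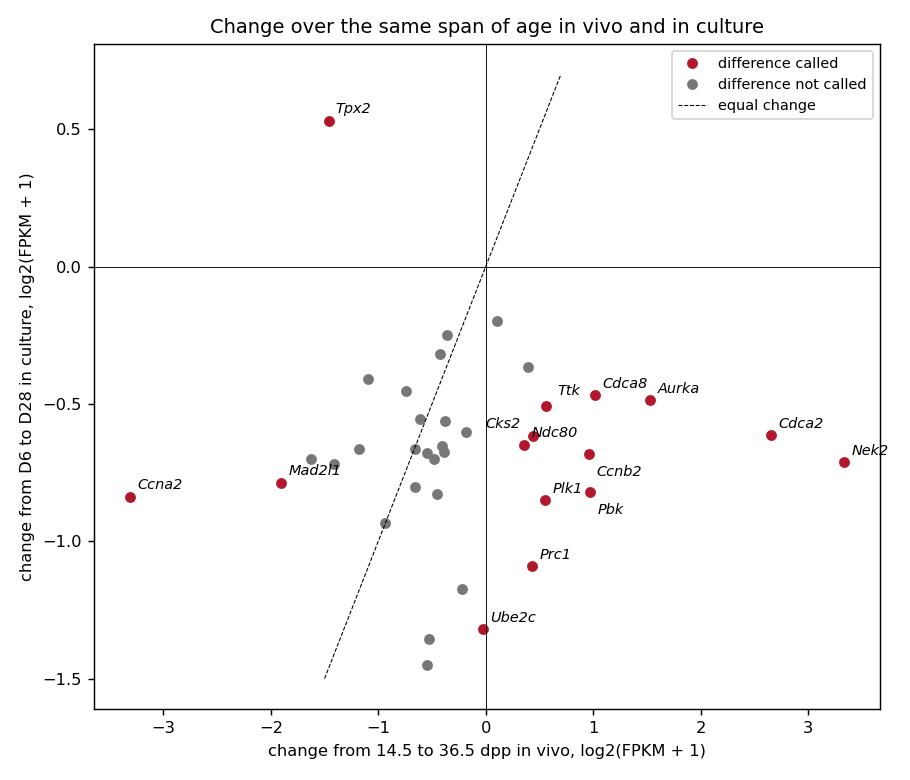
Change in log2(FPKM + 1) from D6 to D28 in culture (vertical) against the change from 14.5 to 36.5 dpp in vivo (horizontal), 1 point per member, with the dashed line at equal change and red points where the difference of changes was called. In vivo changes run from -3.31 to 3.34, while in culture all but Tpx2 lie below 0, between -1.45 and -0.20.

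The changes were also read by promoter motif, without a test. At D28, of the 24 with the CHR, 24 were lower than at 14.5 dpp, with a median of -1.49. Of the 6 without it, 5 were lower at D28, with a median of -1.35, the other being Aurka, whose window may not hold its start of transcription. Both counts stand beside 6.01% of all genes called lower. Most of these members are on the study's list, chosen with the same libraries, so neither count is independent evidence. In vivo, from 14.5 to 36.5 dpp, the range was from -1.90 to 1.01 in the 24 and from -1.41 to 3.34 in the 6, which include Nek2 and Aurka. The medians were -0.39 in the 24 and -0.25 in the 6. Of the 24, 3 were called lower and 1 higher, and of the 6, 2 lower and 2 higher, beside 47.6% and 22.0% of all genes. Cdca2 and Pbk, which rose, and Ccna2, Incenp and Tpx2, which fell, had no promoter entry.

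Other genes of the division machinery were set beside the members as lists. Of 50 further mitotic genes, 42 were in the table, and at D28 27 were lower and 0 higher than at 14.5 dpp, beside 6.01% of all genes lower and 7.63% higher, with a median of -1.15. Among them Tacc3, a centrosome and spindle protein, went from 34.4 and 42.4 FPKM to between 7.83 and 13.5 FPKM (-1.83, SE 0.19), and Depdc1, a mitotic regulator, changed by -1.83 (SE 0.20). From 14.5 to 36.5 dpp, 7 of the 42 rose and 17 fell, beside 22.0% and 47.6% of all genes, with a median of -0.59 and of -0.68 over all genes, so that neither count stood above the share over all genes. Ccna1, the meiotic cyclin A1, rose from between 1.84 and 1.94 FPKM at 14.5 dpp to between 92.1 and 112 FPKM at 36.5 dpp (5.14, SE 0.13, limma adjusted p = 1.1e-06), and stood between 0.372 and 1.02 FPKM at D28. Pkmyt1, an inhibitory kinase of CDK1, rose in vivo by 3.61 (SE 0.19) and Aurkc, the meiotic Aurora kinase, by 2.61 (SE 0.20), and both were lower at D28 than at 36.5 dpp (-4.02 and -2.02). Fbxo5, the early mitotic inhibitor of the anaphase-promoting complex (-3.19, SE 0.16), Cdc25b, a CDK-activating phosphatase (-2.98, SE 0.21), and Mybl2, a MuvB partner (-2.78, SE 0.11), fell most in vivo.

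Of 13 listed genes of the anaphase-promoting complex, the activator Fzr1 among them, limma called 0 at D28 against 14.5 dpp, beside 13.6% of all genes, and 3 had an unadjusted p under 0.05. Their median was -0.21, beside -1.56 for Cdc20 and -2.11 for Ube2c. Of 7 CDK inhibitors and pocket proteins in the table, 2 were lower at D28 than at 14.5 dpp, Cdkn1c, the inhibitor p57 (-1.10, SE 0.28), and Cdkn2c, the inhibitor p18 of CDK4 and CDK6 (-2.00, SE 0.26), and 0 were higher, beside 6.01% of all genes lower and 7.63% higher. Cdkn1a, the inhibitor p21, rose from 8.5 dpp to D6 by 1.53 (SE 0.10, limma adjusted p = 6.7e-05) and stood 0.63 (SE 0.13) above 14.5 dpp at D28, less than 2-fold.

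Cell type markers moved beside these results, and their part in them was not tested. The counts that follow stand beside 7.63% of all genes called higher and 6.01% called lower. From 14.5 dpp to D28, the summed level of 6 Sertoli cell markers was 959 to 992 and 988 to 1066 FPKM with 0 of 6 called by limma and 2 at an unadjusted p under 0.05, that of 6 spermatogonial markers 82.8 to 104 and 59.1 to 72.7 FPKM with 1 higher and 1 lower, and that of 6 spermatocyte markers 32.0 to 77.0 and 32.7 to 43.3 FPKM with 0 called and 1 at an unadjusted p under 0.05. Over the same comparison 4 of 5 Leydig cell markers fell (137 to 298 and 21.7 to 34.3 FPKM), 4 of 4 peritubular markers fell (292 to 485 and 80.4 to 122 FPKM), 2 of 3 macrophage markers tested rose (6.88 to 7.19 and 19.3 to 36.8 FPKM, Cd163 at 0 at D28) and 2 of 4 endothelial markers rose (24.6 to 30.9 and 46.9 to 71.1 FPKM). At 36.5 dpp the spermatocyte markers summed to between 1777 and 1837 FPKM, the 5 spermatid markers to between 2896 and 4414 FPKM and the Sertoli cell markers to between 86.5 and 112 FPKM. The spermatid markers Acrv1, Tnp1 and Prm1 were at 0 in all D28 libraries, and those of 14.5 dpp lacked Acrv1 and Prm1.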

How the data were processed

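RNA-seq of 30 rat testis libraries was used, of which 29 entered the analysis. The authors sequenced 50 bp single reads of a stranded mRNA kit, aligned them with STAR 2.5.2a to build rn6, assembled and quantified RefSeq genes, and deposited 1 FPKM value per gene and library, normalized to transcript length and mapped reads (RPKM in the paper). Entrez identifiers were paired with symbols for 17172 of 17322 genes in a RefSeq table. Tests used log2(FPKM + 1) of the genes whose median reached 0.5 FPKM in 1 or more of the groups compared. Linear models with moderated variances were fitted with limma 3.58.1 (R 4.3.3), two-sided, with Benjamini-Hochberg adjustment over all genes tested. Calls also needed a 2-fold ratio of group medians. D16, D22 and D28 were compared with 14.5 dpp by an F test in 1 fit, and other comparisons each in a fit of the groups named. The tests were tested on simulated data. Replicate numbers did not pair the libraries. Counts were not used here, so no counting interval is given.

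The members, roles and gene lists were chosen with earlier results of these data known. Values by library are given for members that the paper names, for those with the largest and smallest D28 change in each role, and for the 3 largest rises and falls from 14.5 to 36.5 dpp; of the other lists, the 3 largest rises and falls among called genes. Mki67, Racgap1, Tpx2, Cdkn1a and Cdkn1c were named after their values were seen. Promoter sequences are from RefSeq (GRCr8), whose coordinates are not those of rn6. Alternatives changed the pseudocount, the filter, the prior variance, the scaling, the groups in the fit, the fold requirement and the block, and left out each library. Tools were Python 3.11.15, pandas 2.3.3, numpy 2.4.6 and matplotlib 3.10.9.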

Additional observations from a re-analysis of the deposited data

Results flagged for a closer look

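The change over time differed between culture and testis, by a test of the difference itself, in 15 of the 38 members, beside 57.6% of all genes. The 6 members with the largest differences on the log2 scale were Nek2 (-4.05), Cdca2 (-3.27), Ccna2 (2.48), Aurka (-2.02), Tpx2 (1.99) and Pbk (-1.79). Group means moved in opposite directions in vivo and in culture in 12 of the 15, and among these Tpx2 was the member that was higher at D28 than at D6. The share of such opposite moves over all genes was not computed, so that count is not read as a trait of the members.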

How the results depend on the processing

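Of 136 alternative counts of called members, 118 stayed within 1.5 times the reported one, and of 2469 values of single members recomputed, 2347 kept their direction and side of the threshold, 69 came to pass it and 53 no longer did. With the adjusted p alone, limma passed 5 members from 8.5 to 14.5 dpp, 18 from 14.5 to 24.5, 25 from 24.5 to 30.5, 17 from 30.5 to 36.5, 24 from 36.5 to 53.5 and 24 from 14.5 to 36.5 dpp, 37 for D6 against 8.5 dpp, 29 for D6 against 14.5 dpp and 22 for D16 against D6. Scaling libraries to the same median gave 1 member from 8.5 to 14.5 dpp, 14 from 24.5 to 30.5 dpp and 0 from 36.5 to 53.5 dpp. From 8.5 to 14.5 dpp, an intensity trend and the fit of all 10 groups gave 1 each. For D16 against D6, a pseudocount of 0.1 FPKM and no filter gave 1 each. The cause was not tested. With the replicate number as a block, the count was 1 from 8.5 to 14.5 dpp and 4 for D6 against 14.5 dpp; same-numbered libraries correlated between -0.14 and 0.22 in their deviations (median 0.017), so the numbers gave no pairing. Leaving out 1 library at a time gave 0 to 4 members from 8.5 to 14.5 dpp, 7 to 13 from 14.5 to 24.5, 6 to 10 from 24.5 to 30.5, 0 to 1 from 30.5 to 36.5, 1 to 1 from 36.5 to 53.5 and 10 to 13 from 14.5 to 36.5 dpp. It gave 14 to 18 for D6 against 8.5 dpp, 2 to 14 for D6 against 14.5 dpp, 22 to 25 for D16 against 24.5, 29 to 31 for D22 against 30.5 and 24 to 27 for D28 against 36.5 dpp. It gave 1 to 2 for D16 against D6, 0 to 0 for D28 against D16, 27 to 35, 27 to 36 and 29 to 36 for D16, D22 and D28 against 14.5 dpp, and 12 to 17 for the difference of changes. Comparisons with 14.5 dpp rest on 2 testes, and without read counts the precision of low values such as those of Hmmr is unknown.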
